A study of Mus musculus with 3 samples.

Results

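Saa3, Lcn2, Hp, C3, Cfb and Ptx3 encode secreted proteins of innate defence that are made in large amounts during inflammation. These 6 of the 55536 annotated genes were taken by their symbols. The rule itself uses no measured value, but the members were chosen with earlier results of these data known. Saa3 stood at 3937 ± 3395 TPM and was the 5th most abundant nuclear protein-coding mRNA on average. C3 averaged 103 ± 25.1 TPM, Cfb 73.5 ± 27.2 TPM and Lcn2 12.2 ± 6.74 TPM. Hp lay just under 1 TPM, and Ptx3 had 3 counts in all libraries together. TPM is the length-scaled share of a transcript in its library, and values are mean ± SD over n = 3 libraries unless each library is given.

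Bone-marrow-derived macrophages from C57BL/6J mice, grown in culture from marrow precursors, were fractionated, and ribosome-depleted total RNA of the cytosol was sequenced. All cells had received Lipid A, the lipid anchor of bacterial endotoxin that activates Toll-like receptor 4, at 100 ng/ml for 12 h, then a washout of 12 h, then Lipid A at 100 ng/ml again for 30 min. The labels give 3 biological replicates of this 1 condition under the same donor entry, with no sex or age, so the spread and p-values describe these samples and may be technical. No unexposed cells and no other time or fraction were analysed here, so the values give levels after this sequence and no response to Lipid A.

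The acute-phase response is the change in secreted proteins that follows infection or injury. The liver supplies most of the circulating share, driven by interleukin 6 and interleukin 1 through STAT3, C/EBP and NF-kappa B factors, and macrophages make some of the same proteins locally. Complement is a plasma protease cascade that converges on cleavage of C3. Its alternative pathway needs factor B, the product of Cfb, as the protease of the convertase that amplifies C3 cleavage.

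The members can be read against the DNA just before their starts, since C/EBP and NF-kappa B factors are known to act near such genes. The RefSeq promoter table for GRCm38.p6, the mm10 assembly, had entries for 4 of the 6 members, and Cfb and Hp are named only. Each sequence is written 5′ to 3′ on the gene's strand. For Saa3, C3 and Lcn2 it stops where the first exon of the most abundant transcript begins. Ptx3's sequence stops earlier, at 66219886, while the gene is annotated from 66219910. Capitals mark every match to the C/EBP pattern TTNCNNAA on either strand, where N is any base.
Saa3, chr7:46715701-46715926, minus strand: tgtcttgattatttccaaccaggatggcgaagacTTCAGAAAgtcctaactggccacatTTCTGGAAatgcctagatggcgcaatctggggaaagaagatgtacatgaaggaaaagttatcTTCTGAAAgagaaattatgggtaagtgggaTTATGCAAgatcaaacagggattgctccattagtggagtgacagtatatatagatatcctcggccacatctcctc
C3, chr17:57228137-57228386, minus strand: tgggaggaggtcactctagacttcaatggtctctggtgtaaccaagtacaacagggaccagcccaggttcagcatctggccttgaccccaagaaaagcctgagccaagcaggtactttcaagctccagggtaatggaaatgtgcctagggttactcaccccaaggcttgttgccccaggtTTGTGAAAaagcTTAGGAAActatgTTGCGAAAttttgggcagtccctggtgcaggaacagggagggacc
Lcn2, chr2:32387798-32387989, minus strand: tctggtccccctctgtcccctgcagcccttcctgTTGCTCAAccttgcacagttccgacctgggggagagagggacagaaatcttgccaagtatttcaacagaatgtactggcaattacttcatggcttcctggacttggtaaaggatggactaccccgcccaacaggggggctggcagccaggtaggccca
Ptx3, chr3:66219637-66219886, plus strand: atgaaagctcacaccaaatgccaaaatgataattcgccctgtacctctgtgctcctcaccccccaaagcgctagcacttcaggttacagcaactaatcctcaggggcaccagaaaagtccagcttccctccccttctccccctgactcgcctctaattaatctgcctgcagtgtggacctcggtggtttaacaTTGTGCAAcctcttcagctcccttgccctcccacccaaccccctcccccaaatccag
Saa3 held 4 matches, C3 held 3 within 70 bases of its start, and Lcn2 and Ptx3 held 1 each. Of 32851 promoters in the table, searched over the 250 bases before the start, 36.8% held at least 1 match, 2.61% at least 3 and 0.591% at least 4. The same 4 windows had no TATAAA, which 12.4% of all promoters held, no kappa B sequence of the stricter kind searched, allowing 1 mismatch (6.62%), and no TTCNNNGAA, the STAT sequence (7.02%). A looser kappa B form, GGG and CC with any 5 bases between, which every exact match to the stricter one also meets, was in the C3 and Lcn2 windows and in 45.8% of all promoters. The search covered 250 bases for each of the 4 members. For Saa3 and Lcn2 just 226 and 192 of these bases are printed, because the rest lie past the start of that first exon. G and C made up 42% of the printed bases for Saa3, 52% for C3, 56.2% for Lcn2 and 54% for Ptx3. The C/EBP pattern is rich in A and T, and the shares over all promoters were not matched for base content. Ptx3, whose RNA was nearly absent, also held a C/EBP match. A match describes letters and is neither a site nor a cause.

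Saa3, an acute-phase serum amyloid A that mouse macrophages and adipose tissue make locally, had 2622 TPM in replicate 1, 1396 TPM in replicate 2 and 7793 TPM in replicate 3. Replicate 3 was well above the other libraries, and in the lowest library Saa3 was still above every other member. Its expected counts, which are reads assigned to the gene by a model, were 40777, 46783 and 221853 in replicates 1, 2 and 3. This 1 gene thus took 0.142%, 0.0855% and 0.445% of all counts in annotated genes, and 0.875%, 0.501% and 2.65% of the TPM of nuclear protein-coding genes. The gene (ENSMUSG00000040026.8) lies on chromosome 7 at 46711998 to 46715700 of mm10, minus strand.

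Lcn2 encodes lipocalin 2, which binds bacterial siderophores and so keeps iron from bacteria. It had 13.61 TPM in replicate 1, 4.82 TPM in replicate 2 and 18.07 TPM in replicate 3, from 446, 335 and 1061 expected counts. As with Saa3, replicate 3 was highest and replicate 2 lowest. Lcn2 (ENSMUSG00000026822.14; chromosome 2, 32384633 to 32388252, minus strand) ranked 3471st among nuclear protein-coding genes.

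Hp encodes haptoglobin, the plasma protein that captures free haemoglobin, and had 0.84, 0.63 and 0.98 TPM in replicates 1, 2 and 3. All 3 libraries were under 1 TPM, the level used here to call a gene detected, yet its 45, 71 and 93 counts stood far above the 3 counts that a count of 0 allows. Hp (ENSMUSG00000031722.10) lies on chromosome 8 at 109575128 to 109579172, minus strand. Ptx3 encodes pentraxin 3, a soluble pattern recognition protein that binds microbes and C1q. Ptx3 (ENSMUSG00000027832.5; chromosome 3, 66219910 to 66225805, plus strand) had 2, 0 and 1 counts in replicates 1, 2 and 3, at most 0.03 TPM. Those counts do not exceed the 3 per library that a count of 0 allows, which equal 0.104, 0.0548 and 0.0601 CPM (counts relative to library size). Ptx3 mRNA was thus at the floor of this depth, neither clearly present nor shown to be absent.

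C3 encodes the central complement protein and had 117.64 TPM in replicate 1, 117.44 TPM in replicate 2 and 74.0 TPM in replicate 3. Replicates 1 and 2 lay close together and replicate 3 was lowest, the opposite end from Saa3. Its counts were 27590, 56894 and 30071, and the gene (ENSMUSG00000024164.15) lies on chromosome 17 at 57203970 to 57228136, minus strand. Cfb, for factor B, had 74.71 TPM in replicate 1, 45.69 TPM in replicate 2 and 100.01 TPM in replicate 3, from 7233, 8633 and 16141 counts. Cfb exceeded C3 in replicate 3 and was below it in the other libraries. Cfb (ENSMUSG00000090231.10) lies on the same chromosome at 34856374 to 34862518, minus strand, inside the major histocompatibility complex.

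**Figure D1:**
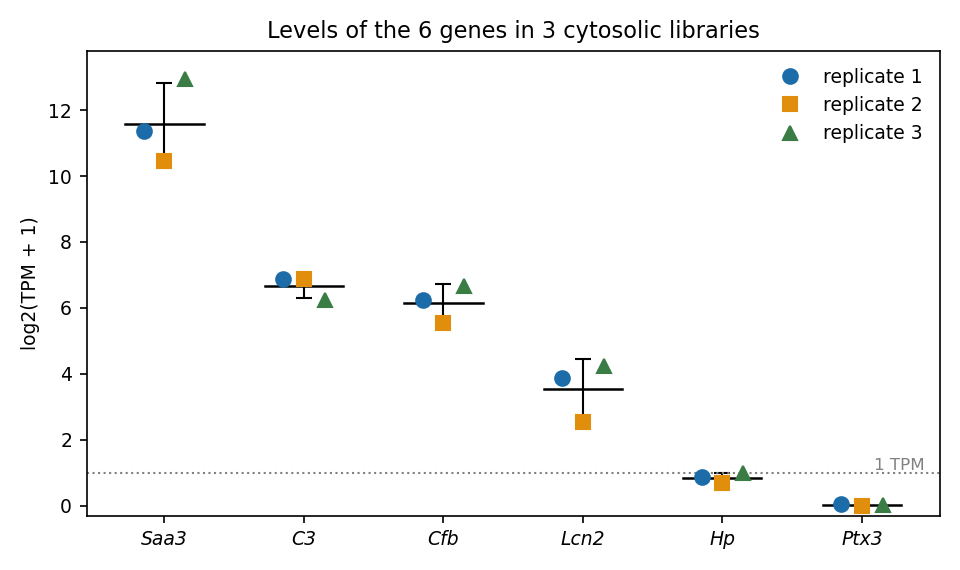
Level of each of the 6 genes, in log2(TPM + 1), in the 3 libraries, with genes ordered by mean TPM, each point 1 library, and horizontal and vertical bars for the mean and SD on that scale (dotted line, 1 TPM). Saa3 lies above every other gene in every library, C3 and Cfb change places in replicate 3, and Ptx3 lies at the bottom with 0.03 TPM at most.

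Differences between members were taken within each library on the log2(TPM + 1) scale, which understates differences of low genes, and were called when all 3 libraries had the same sign and the mean exceeded 3 SD. Of 15 pairs, 13 were called. Saa3 was above C3, the next in order, by 4.47, 3.56 and 6.70 in replicates 1, 2 and 3, a mean of 4.91 ± 1.62 or 30.0-fold. Cfb was above Lcn2 by 2.59 ± 0.36 (6.04-fold), Lcn2 above Hp by 2.70 ± 0.76 (6.49-fold) and Hp above Ptx3 by 0.84 ± 0.13. The pseudocount of 1 sets the size for the low genes: with 0.1 in its place Lcn2 minus Hp was 3.56 and Hp minus Ptx3 3.01, and the plain TPM ratio of Lcn2 to Hp was 16.2, 7.65 and 18.4 in replicates 1, 2 and 3. C3 and Cfb could not be placed in order, since C3 minus Cfb was 0.65, 1.34 and −0.43, with a mean of 0.52 ± 0.89. C3 was above Lcn2 in all 3 libraries, but the 3.11 ± 1.19 (SD, n = 3) did not reach 3 SD. The two-sided exact sign-flip test gave p = 0.25 for 14 pairs, adjusted to 0.268 over the 15, and p = 0.5 for C3 against Cfb. The smallest p that 3 libraries allow is 0.25, so this test could call none. With replicate 1 left out, Saa3 minus C3 was 5.13 and no longer past 3 SD, and without replicate 1 or without replicate 3 Lcn2 minus Hp was 2.55 or 2.41 and also fell short. Lcn2 minus Ptx3, called with all libraries, was 3.39 without replicate 1 and fell short too.

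For comparison between libraries the counts were divided by library size with TMM factors (scaled CPM below), because TPM of one library moves with its short abundant RNAs. Saa3 had 1439, 844 and 4440 scaled CPM in replicates 1, 2 and 3, so the highest library was 5.26-fold above the lowest. Lcn2 had 15.7, 6.04 and 21.2 scaled CPM, 3.51-fold apart. Cfb had 255, 156 and 323 scaled CPM, 2.07-fold apart. In each of these 3 genes replicate 3 was highest, replicate 2 lowest and replicate 1 between them. Hp followed the same order with 1.59, 1.28 and 1.86 scaled CPM, a 1.45-fold range. C3 ran otherwise, with 974, 1026 and 602 scaled CPM and a 1.71-fold range. Ptx3 was not compared, with a mean count under 10.

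Of 13410 genes whose mean count reached 10, 12.2% were at least 2-fold apart between their highest and lowest library, with a median of 1.25-fold, against 3 of the 5 members tested (Saa3, Lcn2 and Cfb). The order with replicate 3 highest and replicate 2 lowest was found in 16.2% of those genes at any fold, and in 4.64% with at least 2-fold. It held for 4 of the 5 members at any fold and for the same Saa3, Lcn2 and Cfb at 2-fold. These shares describe the members, which were not drawn at random, and 1 library decided several of the folds. Without replicate 3 Saa3 was 1.69-fold apart, without replicate 2 Lcn2 was 1.35-fold apart, and Cfb was 1.27-fold apart without replicate 2 and 1.62-fold without replicate 3. The share of all genes at least 2-fold apart was then 6.55% without replicate 2, where Saa3 alone of these members reached 2-fold, and 5.27% without replicate 3, where Lcn2 alone did.

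Counting error was small beside these ranges except in Hp. A chi-square test of homogeneity against counting noise, with Benjamini-Hochberg adjustment over all 13410 genes, called 66.2% of them and 4 of the 5 members, Lcn2 with adjusted p = 4.16e-97 and Saa3, C3 and Cfb with smaller values. Hp, with 209 counts in all, missed the threshold at adjusted p = 0.0836, and reached 0.0338 without replicate 1. The biological coefficient of variation, the spread beyond counting noise estimated by edgeR with an intercept alone, was 0.465 for Saa3 against a trend of 0.152 for genes of like abundance. Its ratio of 3.05 to the trend was above that of 99.9% of 12738 genes. For Lcn2 the ratio was 2.50 (above 99.7% of genes), for Cfb 1.69 (98.2%), for C3 1.32 (94.4%) and for Hp 0.898 (44.3%). Saa3 had the 23rd largest fold between libraries of the 10238 genes whose mean count reached 100, and the 2nd largest of the 696 whose mean count reached 10000, a limit set after its values were seen.

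**Figure D2:**
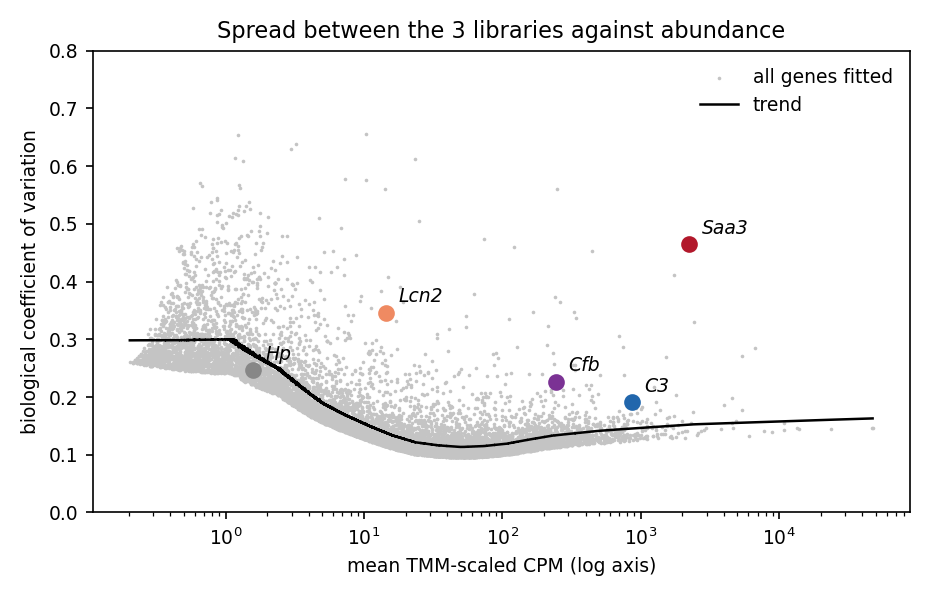
Biological coefficient of variation against mean scaled CPM (log axis) for all 12738 genes fitted, with the trend as a line and 5 of the 6 genes named. Saa3 (0.465) and Lcn2 (0.346) stand well above the trend, Cfb and C3 lie above it by less, and Hp (0.247) lies just below it.

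Other RNAs moved in the same order, and their part in the members' spread was not tested. Malat1 and Neat1, long noncoding RNAs that stay in the nucleus, had 2152, 1244 and 3944 and 215, 135 and 349 scaled CPM in replicates 1, 2 and 3. In bulk RNA, fewer cells that express a gene and less of its RNA per cell cannot be told apart. The genes whose centred log2 scaled CPM lay nearest to a member over the 3 libraries were Gm37033 and Gm49759 for Saa3, at distances of 0.217 and 0.241. Gm37033, an uncharacterised locus, had 3.85, 1.91 and 9.73 scaled CPM. Of the 10232 genes compared, 7 lay within 0.5 of Saa3. The distance grows with the size of the differences between libraries, so these numbers depend on a member's range as well as its order. Lcn2 had A130071D04Rik and Gm2245 nearest, with 39 genes within 0.5. Cfb had Itgam and Cd38 nearest, with 424. C3 had Them4 and Sqstm1 nearest, with 2680, and Hp had Tns3 and Hist1h2be nearest, with 6236. With 3 libraries, many genes share a pattern, and likeness here says nothing of shared control.

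**Figure D3:**
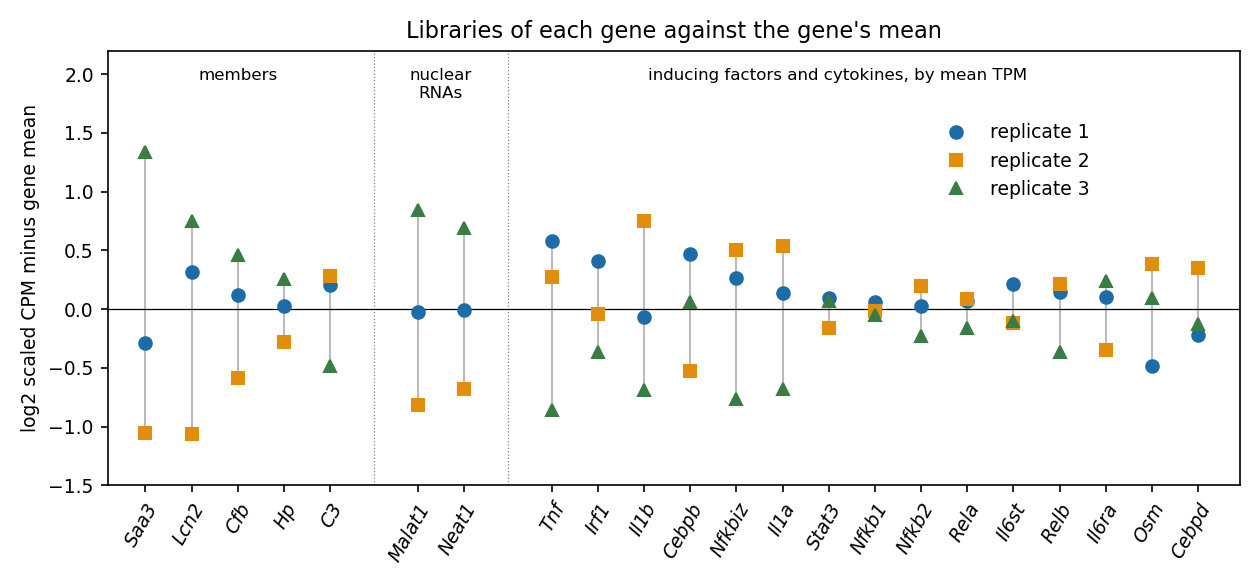
Log2 scaled CPM of each library minus the gene's own mean, for 5 of the 6 genes, for Malat1 and Neat1, and for detected inducing factors and cytokines ordered by mean TPM, with 1 point per library. Replicate 3 is highest and replicate 2 lowest for Saa3, Lcn2, Cfb, Hp, Malat1 and Neat1, whereas replicate 3 is lowest for C3, Tnf, Il1b and Nfkbiz.

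The RNA of most members came from 1 annotated transcript. Saa3-201, of 4 exons and 555 bases, made up 99.95% of Saa3's TPM. C3-201, of 41 exons and 5136 bases, made up 98.8 ± 0.938% of C3, Lcn2-201 98.0 ± 1.66% of Lcn2 and Hp-201 100% of Hp. Saa3-202, with 2 exons and 2200 bases, covers 2051 bases of Saa3-201's introns, and it had 3.79, 2.08 and 3.79 scaled CPM in replicates 1, 2 and 3. Replicate 3 over replicate 2 was thus 1.82-fold for this intron-holding form and 5.27-fold for Saa3-201. Saa3-202 took 0.263%, 0.246% and 0.0853% of the gene's counts, the smallest share in the library with the most Saa3.

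Cfb was divided over several transcripts, and the 2 quantifications deposited for each library divided it differently. The first gave 38.7 ± 6.89% to Cfb-202, 35.9 ± 3.53% to Cfb-206 and 20.3 ± 2.37% to Cfb-204. The second gave 48.6 ± 15.9% to Cfb-202, 15.1 ± 4.47% to Cfb-206 and 2.69% to Cfb-204, and gave 28.9 ± 13.0% to Cfb-201, which had 0.003% in the first. The gene's sum is therefore firmer than any Cfb isoform. TPM values were lower in the second quantification, by a median factor of 2.23 over 8465 genes, taken on means over the libraries. The factor differed between libraries and was largest in replicate 3 for Saa3, C3, Cfb, Lcn2 and Hp. C3 had 53.7, 60.3 and 24.3 TPM in replicates 1, 2 and 3 of the second, against 117.64, 117.44 and 74.0 in the first. The members' counts were not lower in the second quantification, and Saa3 had 44760, 50189 and 240062 in replicates 1, 2 and 3. In the second quantification Saa3 had 1488 ± 915 TPM, C3 46.1 ± 19.2, Cfb 25.2 ± 5.53, Lcn2 4.88 ± 2.10 and Hp 0.353 TPM, the same order of members. In its TPM, unlike in its scaled counts, Cfb, Lcn2 and Hp were highest in replicate 1, and Saa3 alone of these 4 remained highest in replicate 3.

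Relatives of Saa3 and Cfb that lie beside them were low. Saa4, the serum amyloid gene next to Saa3, had 1, 0 and 0 counts in replicates 1, 2 and 3. C2, whose protein is the classical pathway counterpart of factor B, lies next to Cfb and had 0.39, 0.47 and 0.26 TPM. Gm20547, annotated across Cfb on the same strand, received 0 counts in the first quantification and 0, 0 and 10.9 in the second. Cfb had 17332 counts in replicate 3 of the second, so both quantifications gave nearly all these reads to Cfb. Whether reads that fit both genes were divided correctly was not tested. Mir6972 within Cfb and Mir6978 within C3 had 0 counts in the first quantification. Veph1, on the strand opposite Ptx3, also had 0 counts in the first and between 3.29 and 9.23 in the second. Whether counting used strand is not given in the sources used here.

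Most other acute-phase genes, like most annotated genes, were not detected. Of 23 listed, 3 had at least 1 TPM in every library, against 4 of the 6 members and 17.2% of all annotated genes. In the same list 9 had 0 counts throughout, while 21981 of all 55536 annotated genes had at least 1 count after rounding. Cp, for the copper-carrying ferroxidase ceruloplasmin, had 18.8, 12.3 and 38.8 TPM in replicates 1, 2 and 3, again highest in replicate 3 and lowest in replicate 2. Serpina3g, a protease inhibitor, averaged 16.3 ± 5.75 TPM and Serpina3f 1.35 TPM. Saa1 and Saa2, the liver forms of serum amyloid A, averaged 0.04 and 0.02 TPM, and Crp 0.0033 TPM. Of the 4 listed genes whose mean count reached 10, Cp alone was at least 2-fold apart (12.2% of all genes tested), and their median fold was 1.65, against 1.25 over all genes.

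Among 24 other complement components, 6 were detected, beside 17.2% of all annotated genes. Another 9 had 0 counts, while 21981 of all 55536 annotated genes had at least 1 count after rounding. The C1q chains, which start the classical pathway, were the most abundant, with 940 ± 113 TPM for C1qb, 732 ± 73.6 for C1qc and 227 ± 24.4 for C1qa. Cfp, for properdin, which stabilises the alternative pathway convertase, had 194, 189 and 222 TPM in replicates 1, 2 and 3. C3, Cfb and Cfp were thus all above 45 TPM in every library, whereas Cfd, for the factor D that cleaves factor B, had 0 counts throughout. A count of 0 allows an expected count of as many as 3 per library. C2 and C4b, of the classical convertase, averaged 0.373 and 0.367 TPM, and Hc, for complement C5, 0.0033 TPM. Of the 10 listed genes whose mean count reached 10, 2 were at least 2-fold apart (C4b and Masp1), beside 12.2% of all genes tested, and the median fold was 1.46 against 1.25.

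**Figure D4:**
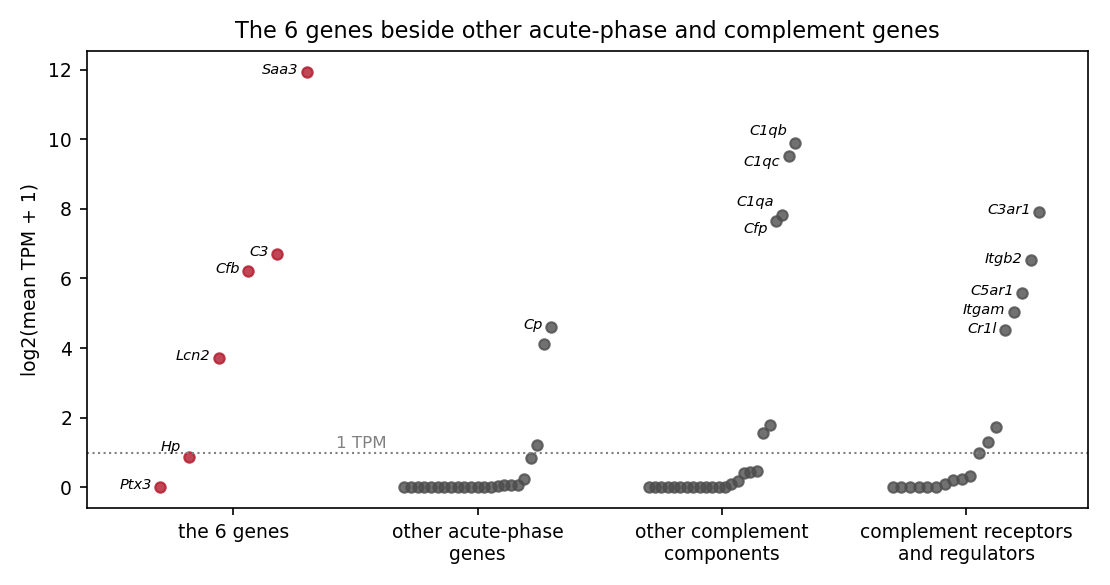
Mean level over 3 libraries, in log2(mean TPM + 1), of the 6 genes and of 3 lists, other acute-phase genes (23), other complement components (24) and complement receptors and regulators (18), with 1 point per gene. Saa3 is the highest of all genes shown, C1qb and C1qc exceed C3 and Cfb, and most acute-phase genes lie at or near 0 TPM.

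Receptors for C3 fragments were present. C3ar1, the receptor of the C3a peptide, had 284, 201 and 229 TPM in replicates 1, 2 and 3. Itgb2 and Itgam, the chains of complement receptor 3, averaged 90.7 ± 16.7 and 31.6 ± 11.7 TPM, and C5ar1, the C5a receptor, 47.2 ± 7.76 TPM. Of 18 receptors and regulators 7 were detected, beside 17.2% of all annotated genes. Of 11 whose mean count reached 10, 2 were at least 2-fold apart (Itgam and Cd46), near the 12.2% of all genes tested, with a median fold of 1.49 against 1.25.

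Partners of the other members were detected in 9 of 14 cases, against 17.2% of all annotated genes. Fcgr1 and Fcgr2b, Fc receptors to which pentraxins can bind, averaged 230 ± 61.3 and 89.7 ± 25.6 TPM. Hmox1, the haem-degrading enzyme downstream of haptoglobin uptake, had 95.1, 110.5 and 139.9 TPM in replicates 1, 2 and 3, while Cd163, the haptoglobin-haemoglobin receptor, averaged 0.05 TPM. Tlr2 and Fpr2, receptors reported for serum amyloid A, averaged 39.1 and 17.3 TPM. Slc22a17, a lipocalin 2 receptor, averaged 0.02 TPM. Of 11 partners whose mean count reached 10, 2 were at least 2-fold apart (Mmp9 and Cd163), beside 12.2% of all genes tested, with a median fold of 1.37 against 1.25. Both had under 30 counts in every library and did not pass the counting noise test, with adjusted chi-square p = 0.0612 for Mmp9 and 0.109 for Cd163.

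Factors and cytokines known to induce the members were mostly present, 16 of 20 being detected, beside 17.2% of all annotated genes. Tnf averaged 307 ± 139 TPM and Irf1 89.5 ± 25.6 TPM. The NF-kappa B cofactor Nfkbiz, which Lcn2 is known to require, had 267, 315 and 131 scaled CPM in replicates 1, 2 and 3, and Cebpb had 128, 64.1 and 96.6. Nfkbiz was lowest in replicate 3, where Lcn2 was highest, while Cebpb was lowest in replicate 2, as Lcn2 was. Tnf, Il1b, Il1a and Il6 were also lowest in replicate 3, with Il6 at 2.02, 2.25 and 0.38 TPM. Of the 18 whose mean count reached 10, 10 were lowest in replicate 3 and 1 was highest there, against 36.2% and 32.4% of all genes. In the same 18, 6 were at least 2-fold apart (Tnf, Il1b, Nfkbiz, Il1a, Il6 and Ifnb1), beside 12.2% of all genes tested, with a median fold of 1.61 against 1.25.

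The markers of the labelled cell type were present. All 8 macrophage markers were detected, beside 17.2% of all annotated genes. Their summed levels were 5079, 4812 and 5045 TPM in replicates 1, 2 and 3, most of it Lyz2 at 3194 TPM on average. Single markers differed more, from 1.07-fold between libraries for Lyz2 to 1.93-fold for Cd14 and 2.04-fold for Itgam, with a median of 1.33-fold. All 8 departed from counting noise, as did 66.2% of all genes tested. Itgam was highest in replicate 3 and lowest in replicate 2, as Saa3, Lcn2 and Cfb were, and its part in their spread was not tested. Neutrophils also store lipocalin 2 and haptoglobin in granules. Of 13 neutrophil granule markers 3 were detected (S100a9, S100a8 and Mmp8), beside 17.2% of all annotated genes. Their 13 levels summed to 9.58, 12.5 and 11.1 TPM, with Ly6g and Retnlg at 0 counts. The sum was highest in replicate 2, but Ngp, Ltf, Elane and Mpo of the same list were highest in replicate 3, Ngp with 9, 31 and 50 counts in replicates 1, 2 and 3 and the others with at most 13 counts in any library. Their part in the levels of Lcn2 and Hp was not tested. Of 7 hepatocyte markers none was detected at 1 TPM, 6 were at 0 counts, and the list summed to 0.32, 0.44 and 0.20 TPM. Of 7 fibroblast and adipocyte markers none was detected, Adipoq and Plin1 were at 0 counts, and the list summed to 0.25, 0.06 and 0.05 TPM. Beside these genes at 0 counts, 21981 of all 55536 annotated genes had at least 1 count after rounding.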

How the data were processed

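The authors deposited, per the file headers, expected counts and TPM values per gene and per transcript, the percent of a gene's TPM in each transcript and the posterior SD of the count, here the first quantification. A second deposited table gave estimated counts and TPM per transcript, which were summed per gene. The deposited text names mm10 and GENCODE M21, while the aligner, the quantifier and the strand setting are not stated. Depth over annotated genes, in expected counts, was 28759407 for replicate 1, 54709008 for replicate 2 and 49878183 for replicate 3, so replicate 1 is the least precise for low genes. Rows naming no annotated gene, 0.774%, 0.207% and 0.167% of counts, were left out. Limits from counts cover counting error only.

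Rounded expected counts were scaled with the TMM factors of edgeR 4.0.16 (R 4.3.3). Dispersions used an intercept alone after filterByExpr, since 1 group allows no contrast. The chi-square test covered genes whose mean count reached 10, and nearest patterns, by Euclidean distance, those reaching 100. Remaining calculations ran in Python 3.11.15 with scipy 1.17.1, numpy 2.4.6 and pandas 2.3.3. The count methods were tested on simulated data. Alternatives were dropping each replicate in turn, no count filter, detection at 0.1 or 5 TPM, pseudocount 0.1, library totals or DESeq2 1.42.0 size factors, TPM rescaled to nuclear protein-coding genes, and the second quantification.

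Members and lists were chosen with earlier results of these data known. The rule for named genes took all members, their overlapping genes, the 2 nearest patterns of each and the 3 highest detected genes of each list. Other genes, Malat1, Neat1 and Saa3-202 among them, were named after their values were seen. Not every gene that met the rule is reported here.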

Additional observations from a re-analysis of the deposited data

How the results depend on the processing

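The order of mean TPM held in the second quantification. Replicate 3 was highest and replicate 2 lowest for Saa3, Lcn2 and Cfb under library totals, DESeq2 size factors, no count filter and the counts of the second quantification. No difference between members changed sign, but in the TPM of the second quantification Cfb, Lcn2 and Hp were highest in replicate 1. That TPM was lowered most in replicate 3 for these genes and also for Saa3 and C3. Leaving out 1 replicate gave differences of 4.01 to 5.58 for Saa3 minus C3 and 2.41 to 3.13 for Lcn2 minus Hp on the log2 scale, and neither was past 3 SD without replicate 1, nor Lcn2 minus Hp without replicate 3, nor Lcn2 minus Ptx3 without replicate 1 (3.39). C3 minus Lcn2 passed it without replicate 2 (2.50) and without replicate 3 (3.68). The 1638 genes at least 2-fold apart became 9261 with no count filter (42.1% of 21981), 3636 in the second quantification (22.4% of 16196), where Cfb was 1.85-fold apart, and 688 to 1244 with 1 replicate left out. Genes past counting noise, 8874 with all libraries, were 5773 to 7320 with 1 left out. Rescaling TPM to nuclear protein-coding genes raised Saa3 to 13420 TPM, C3 to 355, Cfb to 251 and Lcn2 to 41.4. Values of single genes, of lists and of pairs of members not next to each other in the order were tallied together. Of these, 161 kept their side of a threshold or, where there was none, moved by less than a set limit. The limit was 1 SD of the 3 libraries (levels and shares) or 1.5 times (counts). Another 18 moved further, 3 newly passed a threshold and 6 no longer did. Of the values of neighbouring pairs, of all genes together and of detected members, 38 stayed by the same rule, 5 moved further and 3 no longer passed. For Saa3 the SD of the 3 libraries is wide, and its 3937 TPM was 1488 in the second quantification and 2009 without replicate 3. No paired analysis was possible because the labels give a single group. Depth limits Ptx3, with 3 counts in all, and Hp, whose range was close to counting error.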
